A study of Macaca mulatta with 24 samples.

Results

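Carbonic anhydrases are zinc enzymes that interconvert carbon dioxide and water with bicarbonate and protons. In the colon the cytosolic isoforms CA1 and CA2 and the membrane-anchored CA4 are known from the absorptive cells of the surface epithelium, where their products feed the exchange of chloride for bicarbonate and of sodium for protons across the apical membrane. The remaining isoforms differ in where they sit in the cell. CA3, CA7 and CA13 are cytosolic, CA5A is mitochondrial, and CA9 and CA12 are transmembrane enzymes with the active site outside the cell, CA9 being a well known target of the hypoxia response. The 9 isoforms described here are CA1, CA2 and CA4 as the colonic surface isoforms, and CA3, CA5A, CA7, CA9, CA12 and CA13 as the others. They were found as every transcript probe whose gene symbol on the array was one of these names. That gave 8 of the 9 isoforms and 9 of the 43603 transcript probes. No probe carried the symbol CA5A. A probe listed under a locus name is CA5A by its RefSeq gene ID (assembly T2T-MMU8v2.0), and it is described beside the others without being counted.

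RNA came from whole colon segments of young adult male rhesus macaques, 1 array per animal and 24 arrays in all. The unirradiated control group had 4 animals, labelled day 4, and these same animals served as the control of every comparison. The irradiated animals received a single total-body dose of gamma rays, 6.7 Gy or 7.4 Gy, and the groups were 6.7 Gy day 4, 7.4 Gy day 4, 6.7 Gy day 7 and 7.4 Gy day 7 with 4 animals each, and 6.7 Gy day 12 and 7.4 Gy day 12 with 2 animals each. The tissue was the whole gut wall, so the arrays pool epithelium, muscle, blood and immune cells, and fewer cells of a type cannot be told apart from less RNA per cell. Of 8 markers of colon epithelium in general (EPCAM and keratins among them) 7 were tested. All 7 were well above background on at least 1 array of every group.

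A level is given as relative signal, the log2 of the ratio of the processed spot signal to the 75th percentile on that array, so that 0 is the signal of a fairly bright probe and 1 unit is a 2-fold difference. A probe that the scanner software marked as not well above background carries only an upper bound on that array. Differences were tested with limma over 38209 probes, and a gene was called at a Benjamini-Hochberg adjusted p under 0.05 and at least 2-fold. The 75th percentile itself lay between 551 and 964 intensity units over the 24 arrays, and 66.8% to 85.0% of the probes of an array were well above background. The probes were A_01_P002679 for CA1, A_01_P003770 for CA2, A_01_P012970 for CA4, A_01_P015097 for CA7, A_01_P007303 for CA9, A_01_P1685921 for CA12, A_01_P1738591 for CA13, and A_01_P1697076 and A_01_P010763 for CA3. In the RefSeq gene order CA13, CA1, CA3 and CA2 are neighbours on the same chromosome, with 1 other locus between CA1 and CA3.

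On day 4 after irradiation CA1, CA2, CA7 and CA12 were lower than in the controls, and CA4 was not. At 6.7 Gy 2 of the 8 isoforms tested were called, CA1 and CA12, both lower. At 7.4 Gy 4 of the 8 were called, CA1, CA2, CA7 and CA12, all lower. Over the 13457 named genes tested, 4.24% were called at 6.7 Gy on day 4 (1.89% lower) and 8.23% at 7.4 Gy (3.99% lower). By day 7 and day 12 no isoform was called against the controls at either dose.

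CA1, the most abundant carbonic anhydrase of red cells and a classic marker of colonic surface epithelium, moved the most. Its relative signal was 1.05, 0.67, 1.32 and 0.69 in the 4 control arrays. On day 4 it was -4.16, -3.21, -5.43 and -7.69 at 6.7 Gy, and -7.27, -4.00, -7.27 and -7.59 at 7.4 Gy. Every irradiated array of day 4 lay below every control, and at 6.7 Gy the probe stood well above background on only 2 of the 4 arrays, at 7.4 Gy on only 1. In intensity units the controls read 1096 to 1856, against 4.54 to 50.7 at 7.4 Gy. The log2 change was -6.05 at 6.7 Gy (SE 0.97, 95% confidence interval -8.07 to -4.03, limma adjusted p = 0.00129). It was -7.46 at 7.4 Gy (95% confidence interval -9.49 to -5.44, limma adjusted p = 5.9e-05). Because most of these arrays were near background, the size depends on how background is treated, and a normexp correction gave changes of -3.98 and -4.35, both still called.

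Array position on the slide bears on the 7.4 Gy value of CA1, since every control was at position 1 and every 7.4 Gy day 4 array at position 2. With position as a block the CA1 change was -4.61 at 6.7 Gy (limma adjusted p = 0.0178) and -4.59 at 7.4 Gy (limma adjusted p = 0.0727), so the 7.4 Gy call was lost, as it was with scan day added as a second block (-5.20, limma adjusted p = 0.226). Within the 2 slides that held both groups, the 7.4 Gy day 4 array differed from the control on its own slide by -8.59 and -4.69. The positions differed there too, so these values do not separate dose from position. Of the 6.7 Gy arrays, 2 shared position 1 with the controls, and they differed from the controls by -5.09 to -4.14, with a mean of -4.61.

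On day 7 CA1 was close to the controls at 6.7 Gy and spread widely at 7.4 Gy, where 1 animal was still at a day 4 level. The 6.7 Gy arrays read -0.64, -0.37, -0.14 and 0.49, all below the lowest control, while the 7.4 Gy arrays ran from -4.65 to 0.72 with values of -2.57 and -1.23 between. Neither group was called, with changes of -1.10 (limma adjusted p = 0.778) and -2.86 (95% confidence interval -4.89 to -0.84, limma adjusted p = 0.231). With the normexp correction the 7.4 Gy change was -2.24 and was called (limma adjusted p = 0.0377). On day 12 the values were 0.95 and 1.49 at 6.7 Gy and 0.70 and 1.16 at 7.4 Gy, inside or just above the range of the controls.

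CA2 is a fast cytosolic isoform shared by absorptive epithelium and many other tissues. Like CA1 it had its lowest mean at 7.4 Gy on day 4 and the next at 6.7 Gy, with smaller falls. Its relative signal was 5.14, 5.35, 5.43 and 5.60 in the controls. At 6.7 Gy on day 4 it was 3.88, 3.52, 5.10 and 3.77, and at 7.4 Gy 1.75, 3.99, 1.55 and 3.47. All 8 day 4 arrays lay below all 4 controls. The change of -1.31 at 6.7 Gy was not called (95% confidence interval -2.35 to -0.28, limma adjusted p = 0.0981). At 7.4 Gy CA2 fell 6.46-fold, a log2 change of -2.69 (95% confidence interval -3.73 to -1.66, limma adjusted p = 0.00107). With position and scan day as blocks together that change was -3.53 and no longer called (limma adjusted p = 0.131).

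On days 7 and 12 CA2 was at or above the controls in most animals, though not at 7.4 Gy on day 7. It read 6.25, 5.44, 5.52 and 5.91 at 6.7 Gy on day 7. At 7.4 Gy it read 4.40, 4.39, 6.19 and 4.00, all but 6.19 below every control. The changes of 0.40 and -0.63 were not called. The 4 day 12 arrays lay between 5.58 and 5.95, with changes of 0.53 at 6.7 Gy and 0.31 at 7.4 Gy, neither called.

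CA4, which is tethered to the apical membrane by a lipid anchor, did not follow CA1 and CA2. The controls read 4.03, 4.69, 4.39 and 4.98. At 6.7 Gy on day 4 the values were 6.06, 5.20, 5.56 and 4.81, 3 of them above every control. At 7.4 Gy they were 4.51, 4.97, 3.16 and 5.17, a spread that took in the whole control range. The 6.7 Gy change was 0.89 (95% confidence interval 0.15 to 1.63, limma adjusted p = 0.114), and it was called only when arrays were scaled on their spike-in probes (1.09, limma adjusted p = 0.0407). The 7.4 Gy change was -0.07 (95% confidence interval -0.81 to 0.67, limma adjusted p = 0.917). That interval uses a spread shared by all groups, whereas the SD was 0.90 at 7.4 Gy and 0.41 in the controls. The 2 groups also differed in array position. The interval is therefore not read as excluding a 2-fold fall. From day 7 on the 12 arrays lay between 3.61 and 4.56, and the changes from -0.54 to -0.26 were not called.

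**Figure D1:**
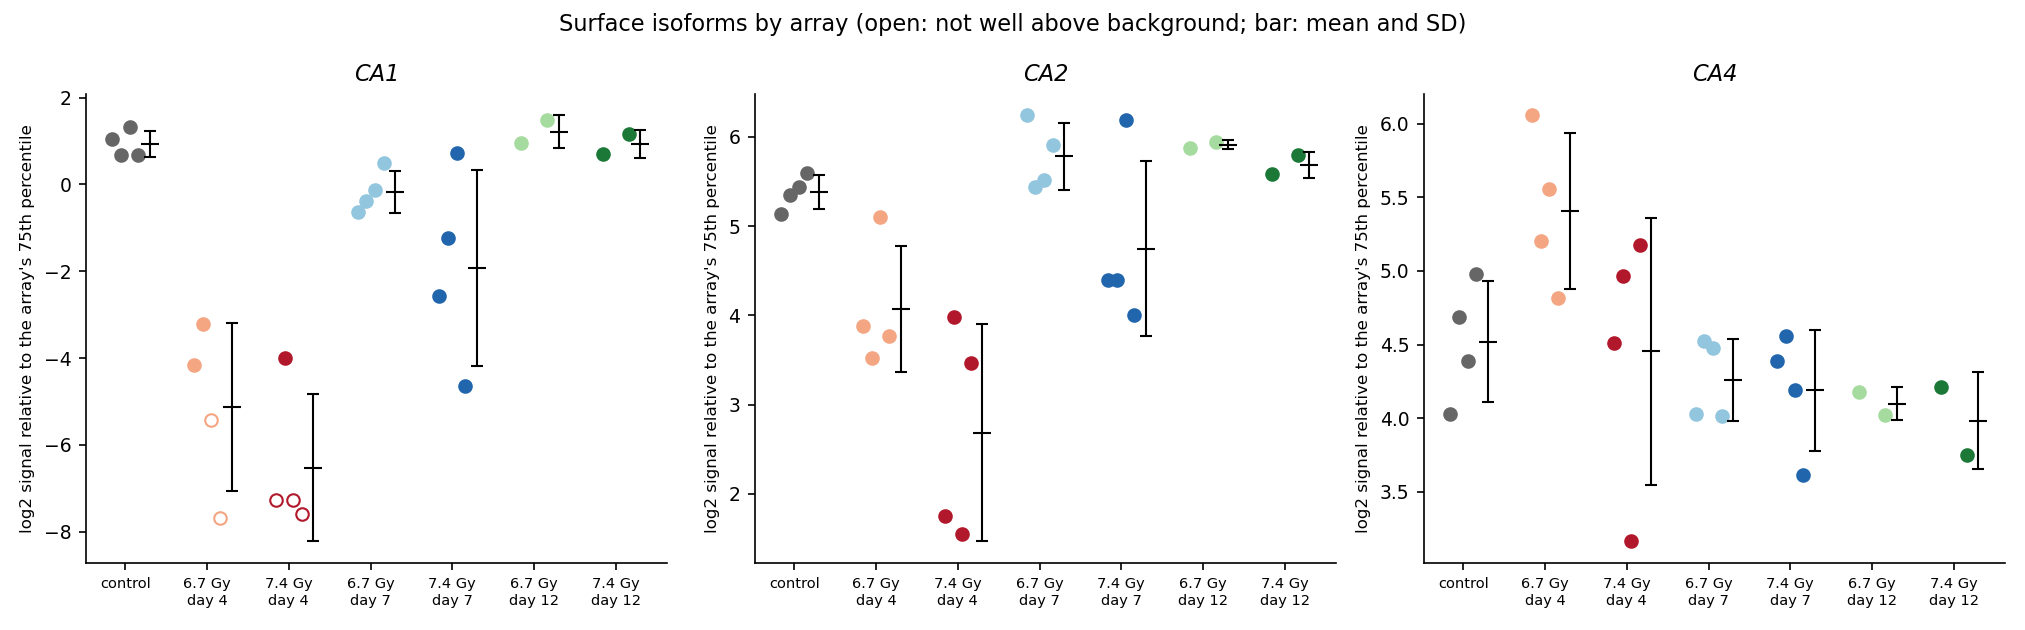
Relative signal (log2, 75th percentile of the array = 0) of CA1, CA2 and CA4 on every array in the control group and the 6 groups of dose and day. Points are arrays, open where the probe was not well above background, and bars are group means with their SD. CA1 lies at 0.67 to 1.32 in the controls and between -7.69 and -3.21 on day 4, CA2 drops less, and the CA4 values of day 4 are not below the controls except for 1 array at 7.4 Gy.

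Of the other isoforms, CA12, a transmembrane enzyme of the basolateral side of epithelia, was called at both doses on day 4. Its controls read 5.80, 4.76, 5.36 and 5.38. On day 4 it was 3.55, 2.59, 3.89 and 5.01 at 6.7 Gy, and 2.74, 3.16, 1.73 and 2.58 at 7.4 Gy. The 7.4 Gy arrays lay wholly below the controls, whereas 1 array at 6.7 Gy reached into the control range. CA12 fell 2.96-fold at 6.7 Gy, a log2 change of -1.57 (95% confidence interval -2.36 to -0.77, limma adjusted p = 0.0147). At 7.4 Gy it fell 6.84-fold, a log2 change of -2.77 (95% confidence interval -3.57 to -1.98, limma adjusted p = 1.0e-04).

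The 6.7 Gy call of CA12 was lost with slide as a block (-1.15, limma adjusted p = 0.103), and also in the fit of the compared groups alone and in the methods' t-test. The 7.4 Gy call held in all 16 alternatives. Its size grew to -4.15 with position as a block. On day 7 and day 12 the 12 arrays of CA12 ran from 4.92 to 5.93 against 4.76 to 5.80 in the controls, and no group was called.

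CA7, a cytosolic isoform best known from brain and also expressed in colon epithelium, fell at the higher dose. It read 2.77, 2.44, 2.87 and 2.27 in the controls. On day 4 it was 2.15, 1.81, 1.66 and 0.37 at 6.7 Gy, and -0.21, 1.03, -2.57 and 1.27 at 7.4 Gy. Both day 4 groups lay below all controls, and replicate 3 at 7.4 Gy was the lowest array of the series for CA7, CA4 and CA12 as well as CA2. The 6.7 Gy change of -1.09 was not called (limma adjusted p = 0.249). At 7.4 Gy CA7 fell 6.54-fold, a log2 change of -2.71 (95% confidence interval -3.93 to -1.49, limma adjusted p = 0.00333). That call was lost with position as a block (-1.74, limma adjusted p = 0.311), with position and scan day as blocks together (-1.35, limma adjusted p = 0.709), and in the methods' t-test.

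CA7 stayed somewhat low on day 7. It ran from 1.42 to 2.09 at 6.7 Gy, below every control, and from 1.20 to 2.45 at 7.4 Gy. The changes of -0.78 and -0.73 were not called. On day 12 the 6.7 Gy arrays read 2.67 and 2.74 and the 7.4 Gy arrays 2.73 and 1.72.

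CA9, the hypoxia-induced isoform, varied widely among the controls and was not called in any group. The controls read -4.16, -0.86, -2.92 and -1.85. On day 4 it was -2.38, -2.39, -1.71 and -1.87 at 6.7 Gy, and -0.65, -0.33, -2.88 and -2.67 at 7.4 Gy. These values overlapped the controls, and the changes were 0.36 (95% confidence interval -0.94 to 1.66) and 0.82 (95% confidence interval -0.48 to 2.11, limma adjusted p = 0.376). The SD of the controls was 1.41, and both intervals include a rise of 2-fold.

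CA3, which is abundant in skeletal muscle and fat, and CA13 were near background. The brighter CA3 probe was well above background on 2 of 24 arrays, 1 at 6.7 Gy on day 7 and 1 at 6.7 Gy on day 12, with signals of at most 14.9 intensity units on any array. The other CA3 probe passed on 1 array and was not tested. CA13 passed on 2 arrays, replicate 3 at 6.7 Gy on day 4 (relative signal -4.74) and replicate 1 at 6.7 Gy on day 7 (-2.74), and it had signals under 10 intensity units on all others. The CA5A probe passed on 5 arrays, spread over 4 groups. No size of change is given here for these probes.

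**Figure D2:**
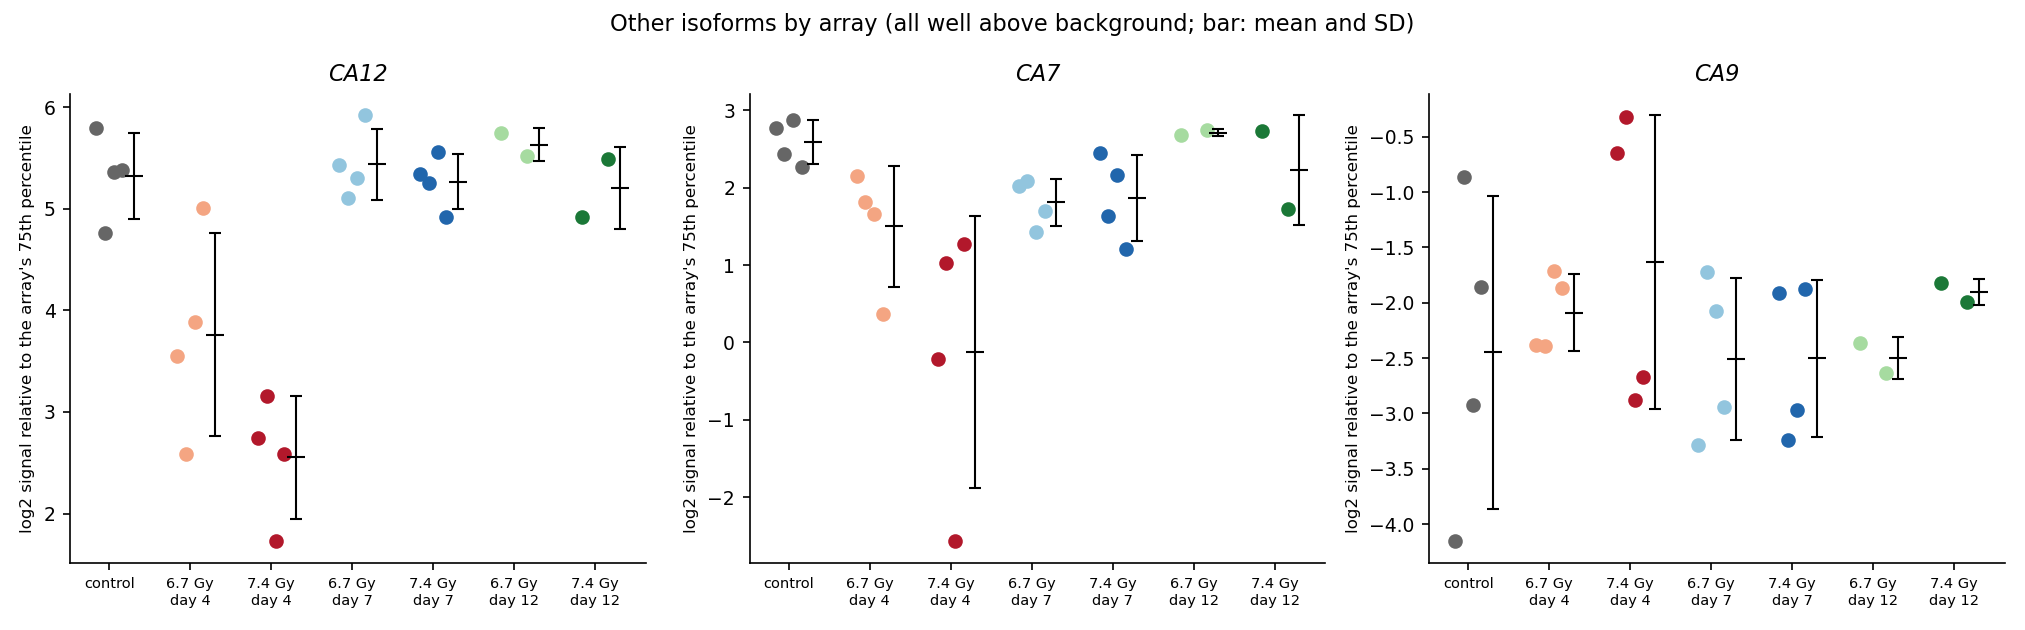
Relative signal (log2, 75th percentile of the array = 0) of CA12, CA7 and CA9 on every array by group. Points are arrays, all well above background, and bars are group means with their SD. CA12 and CA7 are lower on day 4, with means of 2.55 and -0.12 at 7.4 Gy, and CA9 overlaps across groups.

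Set side by side, the 3 surface isoforms had a median log2 change of -1.31 at 6.7 Gy on day 4 and -2.69 at 7.4 Gy, with 1 and 2 of them called. The 5 others found by symbol had medians of -1.09 and -0.997, with 1 and 2 called, and the CA5A probe moved these medians to -0.41 and -0.69. The median over all named genes was -0.04 and -0.02. The division into surface and other isoforms therefore did not sort the genes that fell from those that did not. CA4 stood apart among the surface isoforms, and CA12 and CA7 fell among the others. At 7.4 Gy the median of the 5 others was the fitted value of CA3 itself. That probe was well above background on no control or day 4 array, so this median measures no size of change. The other medians of this group rest in part on CA3, CA13 and CA5A, which were near background.

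**Figure D3:**
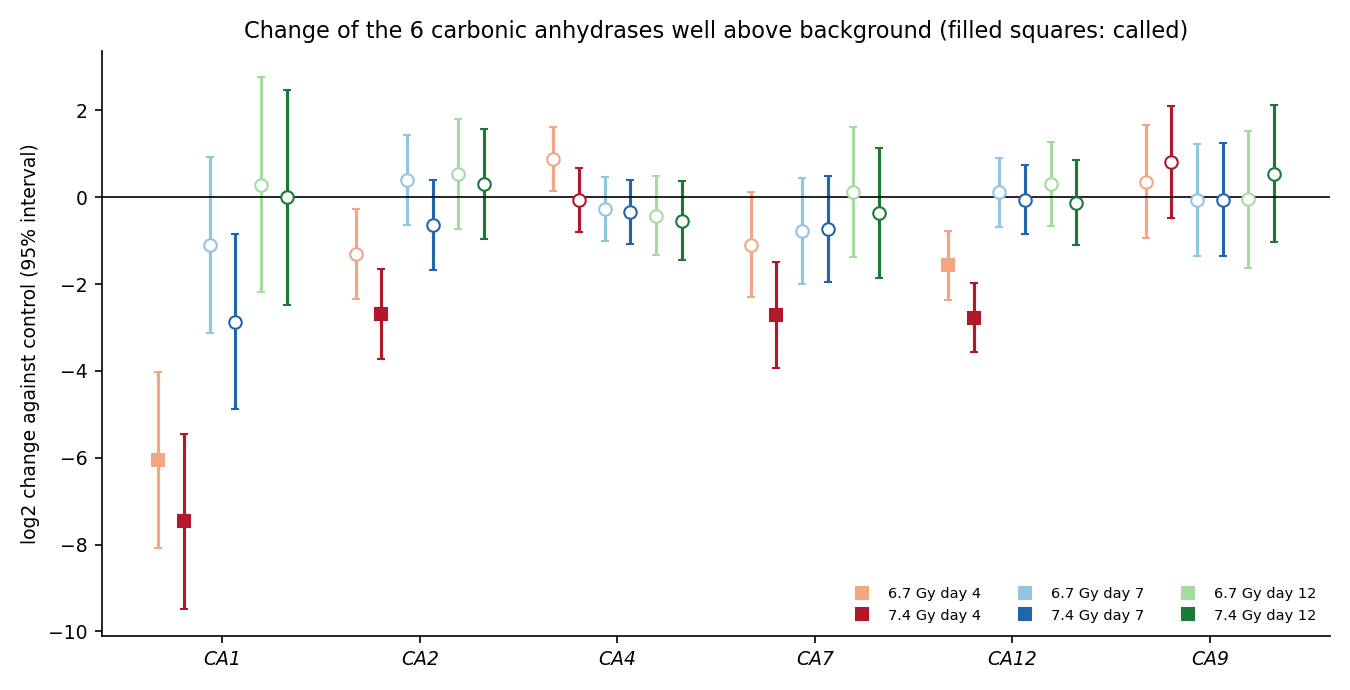
Log2 change against the 4 controls of CA1, CA2, CA4, CA7, CA12 and CA9, in the 6 groups of dose and day, with 95% confidence intervals from limma. Filled symbols are called, and open symbols are not. All 6 called changes are on day 4 and below 0.

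No isoform was called on day 7 at 6.7 Gy or 7.4 Gy, where 0.386% and 0.498% of named genes were called, nor on day 12, where 0.0149% were called at each dose. At an unadjusted p under 0.05 the limma counts were 0, 1, 0 and 0 of 8 isoforms, the 1 being CA1 at 7.4 Gy on day 7. The methods' t-test with the same adjustment called 0 in each. Day 12 rests on 2 animals a dose, so its intervals are wide.

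The difference between days was tested on the irradiated animals alone, as the mean of both doses. From day 4 to day 7, CA1, CA2, CA7 and CA12 were called higher, and from day 4 to day 12 the same isoforms were. CA3 was called as well, which makes 5 of 8 each time. Its probe passed the filter only through 1 array of day 7 and 1 of day 12, so its calls are not read as a rise. Over all named genes 5.05% were called between days 7 and 4 (2.65% higher) and 7.65% between days 12 and 4 (4.13% higher). CA1 had a log2 difference of 4.78 on day 7 from day 4 (limma adjusted p = 1.02e-04) and of 6.90 on day 12 (limma adjusted p = 3.07e-05). Since CA1 was well above background on only 3 of the 8 arrays of day 4, these sizes are not firm, and the normexp correction gave 2.54 and 4.27, both called. All day 4 arrays were at positions 1 and 2 and all arrays of days 7 and 12 at positions 3 and 4, so day and position cannot be told apart here. CA2 was 3.70-fold higher on day 7 (limma adjusted p = 7.88e-04) and 5.35-fold higher on day 12 (limma adjusted p = 6.0e-04). CA12 was 4.59-fold higher on day 7 (limma adjusted p = 2.74e-05) and 4.80-fold higher on day 12 (limma adjusted p = 1.16e-04).

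CA7 was 2.21-fold higher on day 7 than on day 4 (limma adjusted p = 0.0465) and 3.43-fold higher on day 12 (limma adjusted p = 0.0151). The day 7 call of CA7 held in only 6 of 14 alternatives. CA3 was called at both times, but it was well above background on 0 of 8 arrays of day 4, 1 of 8 of day 7 and 1 of 4 of day 12. CA4 ran the other way, 1.63-fold lower on day 7 than on day 4 (limma adjusted p = 0.0432) and 1.85-fold lower on day 12 (limma adjusted p = 0.0398), both short of 2-fold and so not called. Between day 7 and day 12 no isoform was called, against 0.134% of named genes, and 1 had an unadjusted p under 0.05, CA1 with a change of 2.12 (95% confidence interval 0.37 to 3.88, limma adjusted p = 0.399).

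Every fall called at 6.7 Gy had a lower mean at 7.4 Gy, but no isoform was called between doses. On day 4 the 7.4 Gy group was lower than the 6.7 Gy group by 1.41 for CA1, 1.38 for CA2 and 0.96 for CA4. The limma adjusted p-values were 0.896, 0.650 and 0.677. At an unadjusted p under 0.05, 4 of 8 isoforms differed between doses on day 4, CA2, CA4, CA7 and CA12, while none of the 38209 probes was called. With array position as a block 94 probes were called between doses on day 4, none of them an isoform described here. The methods' t-test called 0 isoforms.

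When the 7 groups were ordered by their mean, CA1, CA2, CA7 and CA12 each had 7.4 Gy day 4 lowest and 6.7 Gy day 4 next. CA1 was highest at 6.7 Gy on day 12 (mean 1.22), followed by the controls and 7.4 Gy day 12 (both 0.93), then 6.7 Gy day 7 (-0.17), 7.4 Gy day 7 (-1.93), 6.7 Gy day 4 (-5.12) and 7.4 Gy day 4 (-6.53). No pair of neighbours in the order of any isoform differed in limma, and the lowest adjusted p was 0.0666, between 7.4 Gy day 7 and 6.7 Gy day 4 for CA1.

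The rest of the family adds 6 isoforms, of which CA8 did not pass the filter on dim probes. Of the 5 tested (CA5B, CA6, CA10, CA11 and CA14) none was called in any group. CA6, the secreted isoform of saliva, had changes of 1.73 and 1.99 on day 4 (limma adjusted p = 0.243 and 0.132), from a probe that was well above background on 1 of 4 control arrays and all 8 arrays of day 4.

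Bicarbonate made by these enzymes leaves the surface cell through apical exchangers and channels. Of 20 genes of bicarbonate and proton transport 16 were tested. On day 4, 7 of the 16 fell at 6.7 Gy, 10 fell at 7.4 Gy and none rose. Over all named genes 1.89% and 3.99% were called lower. The median log2 changes of the 16 were -0.92 and -1.22, against -0.04 and -0.02 over all named genes. None of the 16 was called on day 7 or day 12 against the controls. SLC26A3, the apical chloride/bicarbonate exchanger, had a mean relative signal of 4.24 ± 0.53 (SD, n = 4) in the controls. It fell by 2.96 on the log2 scale at 6.7 Gy (limma adjusted p = 0.0265) and by 4.32 at 7.4 Gy (limma adjusted p = 7.39e-04). The spot was an outlier and left out on 1 array at 6.7 Gy on day 4. It was also left out at 6.7 Gy on day 12, where SLC26A3 rests on 1 animal.

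CHP2, a calcineurin-like partner of sodium/proton exchangers, fell 87.1-fold at 7.4 Gy (limma adjusted p = 5.0e-05), and BEST2, an anion channel of the colon, fell 42.1-fold. GUCA2B and GUCA2A, which encode uroguanylin and guanylin, peptides that stimulate bicarbonate and chloride secretion, had log2 changes of -4.93 and -3.47 at 7.4 Gy, both called. BEST4, a bestrophin channel found in a small population of absorptive cells, was called at 7.4 Gy only (5.96-fold lower, limma adjusted p = 0.0397). At 6.7 Gy its change was -1.20 (limma adjusted p = 0.400). At 7.4 Gy on day 4 CHP2, BEST2 and BEST4 were each well above background on 3 of 4 arrays. The sizes of their falls at that dose are therefore not firm. From day 4 to day 7, 8 of the 16 rose, and from day 4 to day 12, 10 rose. Over all named genes 2.65% and 4.13% were called higher. With array position as a block the counts on day 4 were 2 and 5 of 16, and with position and scan day as blocks together 0 and 0.

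**Figure D4:**
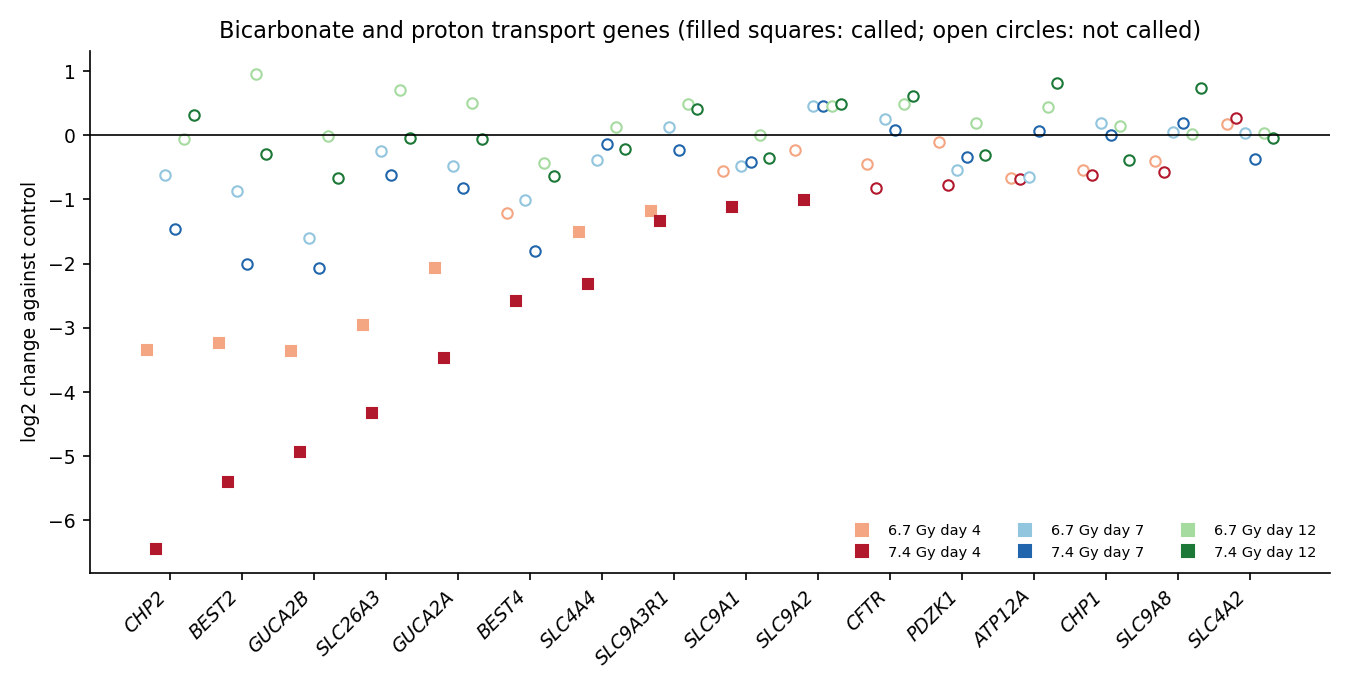
Log2 change against the controls of the tested genes of bicarbonate and proton transport on day 4, day 7 and day 12 at both doses. Filled symbols are called, and open symbols are not. At 7.4 Gy on day 4, 10 of 16 are called, all lower, and no gene is called on day 7 or day 12.

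Other readouts of the same arrays moved with the isoforms. Of 8 markers of surface colonocytes 7 were tested. On day 4, 5 of the 7 fell at 6.7 Gy and 6 at 7.4 Gy, against 1.89% and 3.99% of named genes. SLC26A3, GUCA2A and GUCA2B are in this list as well as in the transport list. The summed linear level of the 7, relative to the 75th percentile, was 430 to 725 in the controls, 81.2 to 226 at 6.7 Gy on day 4 and 35.5 to 204 at 7.4 Gy. Of the 7 general epithelial markers tested, 1 fell at 6.7 Gy (CDX2) and 2 at 7.4 Gy (VIL1 and CDX2), with medians of -0.64 and -0.77. Their summed level was 285 to 343 in the controls, 150 to 275 at 6.7 Gy and 170 to 273 at 7.4 Gy. The median log2 change of the 7 surface colonocyte markers was -2.42 at 6.7 Gy on day 4 and -3.47 at 7.4 Gy. At 7.4 Gy CA1, CA2, CA7 and CA12 fell more than the median of the general epithelial markers. Against the surface colonocyte median CA1 fell more, whereas CA2, CA7 and CA12 fell less. The change of CA4 was smaller than both medians. How far epithelial cell numbers had a part in the isoforms' changes was not tested.

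Red blood cells carry CA1 and CA2, and 5 of 8 red cell markers were tested. HBB, the beta globin gene, fell in 5 of the 6 groups. At 6.7 Gy its log2 change was -5.94, -6.56 and -5.14 in time order. At 7.4 Gy it was -5.96, then -8.38, and then -3.03, the last not called (limma adjusted p = 0.279). The size of -8.38 is not firm, since HBB was well above background on 2 of 4 arrays at 7.4 Gy on day 7. At 6.7 Gy on day 12 HBB was called lower, and CA1 read 0.95 and 1.49. ALAS2, an enzyme of red cell heme synthesis, fell at 6.7 Gy on day 4, and it was not well above background in 5 of the irradiated groups. On day 4, 2 of 5 markers were called lower at 6.7 Gy and 1 at 7.4 Gy, against 1.89% and 3.99% of named genes. The median changes of the 5 were -0.26 and -0.52. The summed level of the 5 was 136 to 268 in the controls. On day 4 it was 149 to 210 at 6.7 Gy and 134 to 152 at 7.4 Gy. HBB, with a mean relative signal of 2.81 in the controls, makes up little of that sum. The mean log2 level of the 5 markers had a median over arrays of -0.12 in the controls. On day 4 that median was -1.99 at 6.7 Gy and -2.12 at 7.4 Gy. The part of red cell RNA in the CA1 and CA2 changes was not tested on any day.

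Few genes of the remaining lists were called. None of 3 smooth muscle markers was called on day 4, nor any of 7 immune cell markers, among which PTPRC fell on day 7. Of 4 tested markers of skeletal muscle and fat, where CA3 is high, MYH2 alone was called, lower at 6.7 Gy on day 4. Of 8 hypoxia targets tested beside CA9, ADM and ANKRD37 rose on day 4 at both doses, ADM with log2 changes of 1.51 and 1.66 and ANKRD37 with 1.12 and 1.02. Over all named genes 4.24% and 8.23% were called on day 4, in either direction. Over the alternatives the count of 2 hypoxia targets ran from 0 to 3 at 6.7 Gy and from 0 to 4 at 7.4 Gy.

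Over the 24 arrays, or as many as had a value, the genes most like CA1 by Pearson's r were SEMA3B (0.949), AIFM3 (0.948, over 23 arrays), MAST2 (0.946), KLF4 (0.941, over 19 arrays) and PDZD3 (0.941). Those most like CA2 were CHP2 (0.943), SLC26A3 (0.934, over 22 arrays), TRPM6 (0.933), RAPGEFL1 (0.926) and PCK1 (0.926). For CA4 the closest reached only 0.686 (ACTL7B), followed by LTB (0.678), ZSCAN5A (0.668), LDLRAD4 (0.666) and IL2RG (0.664). These values describe patterns that include the group differences, and no p is given for them. Among the isoforms CA1 and CA2 had an r of 0.855 and CA2 and CA12 of 0.845, whereas CA1 and CA4 had -0.278.

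Animals of the same group also differed together. With each group's mean taken off, 60 pairs were compared, 28 among the isoforms and 32 of an isoform with HBB, EPCAM, SLC26A3 or BEST4. The highest r was 0.894, between CA4 and BEST4 (Spearman's rho 0.812), and it was 0.805 without the 2 arrays farthest from the median. It was 0.855 within the 8 arrays of one scan day and 0.904 within the 16 of the other. CA7 and BEST4 had an r of 0.872 (rho 0.676, and 0.778 without the 2 farthest arrays). CA4 and CA7 had an r of 0.785 (rho 0.530). It was 0.547 without replicates 3 and 4 at 7.4 Gy on day 4, the 2 arrays farthest for CA7. The farthest arrays were picked on the last-named gene of each pair. CA2 and SLC26A3 had an r of 0.777 over the 22 arrays with a value for SLC26A3 (rho 0.666, and 0.651 without the 2 farthest). CA2 and CA1 also varied with BEST4, with r of 0.681 and 0.575 (0.569 and 0.512 without the 2 farthest arrays). CA12 did not vary with BEST4 in the same way, with an r of 0.170 that was -0.210 without the 2 farthest arrays. With EPCAM the r of CA12 was 0.646. Replicate 3 at 7.4 Gy on day 4 was the lowest array of its group for CA4, CA7 and BEST4. These are descriptions over arrays that share a scaling, with no p.

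**Figure D5:**
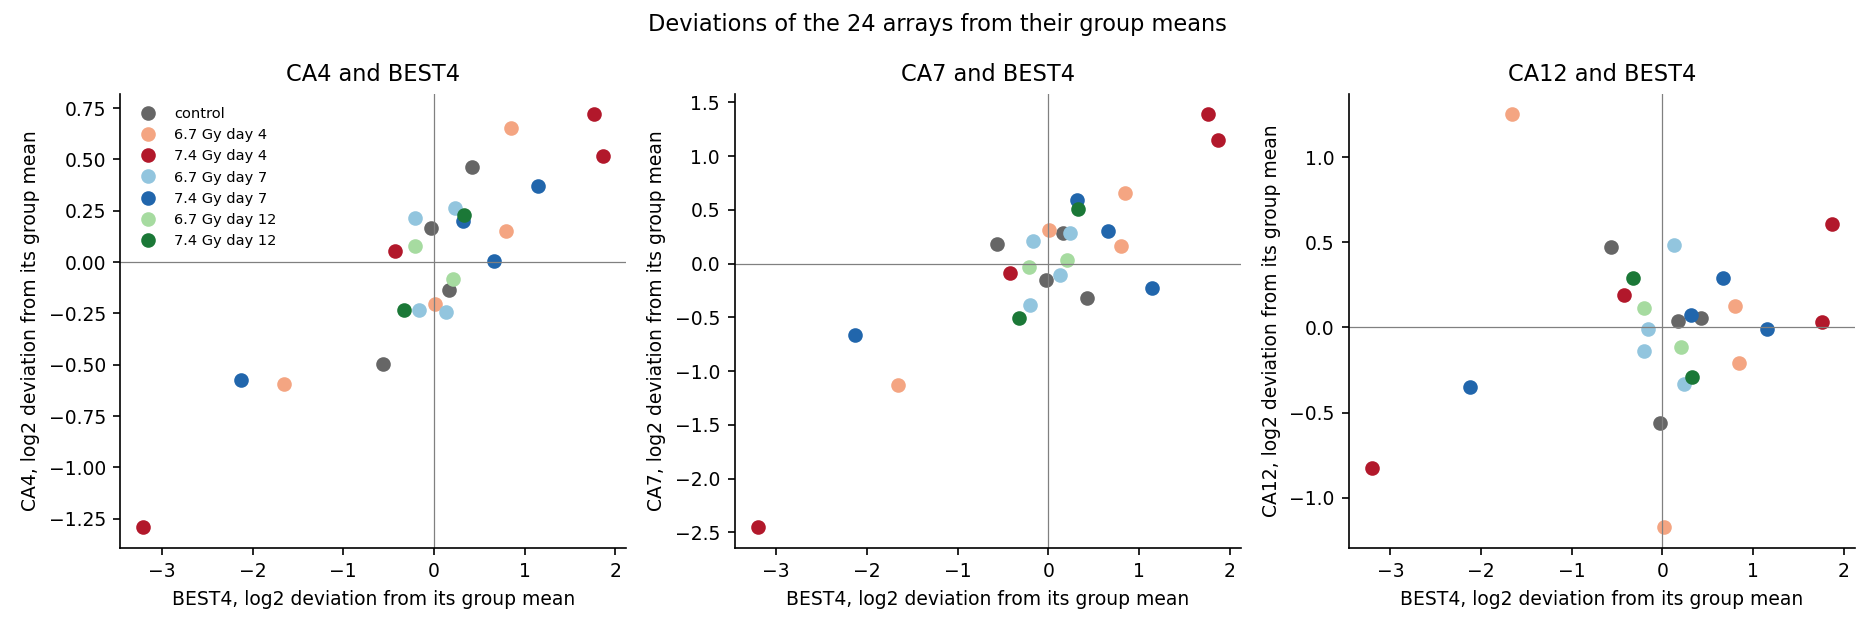
Deviation of CA4, CA7 and CA12 from their group means (vertical axes, log2) against that of BEST4 (horizontal axis, log2) on the 24 arrays, coloured by day and dose. CA4 (r = 0.894) and CA7 (r = 0.872) rise with BEST4, and CA12 (r = 0.170) does not.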

How the data were processed

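Colon RNA of 24 rhesus macaques had been hybridised to 1-colour Agilent arrays. Per the file headers, intensities were extracted with Feature Extraction 11.0.1.1. The authors log2-transformed the signals, scaled each array to its 75th percentile and left out RNA of low integrity. Their deposited log2 table, centred on each probe's median over arrays, served as an alternative. The file headers name the genome build rheMac2. Groups follow the sample labels. A treatment text gives another last day than the day 12 of those labels.

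Here, the deposited processed intensities were log2-transformed, each array's 75th percentile was subtracted, and control and outlier spots were left out. Of 43603 probes, 38229 were well above background on at least 2 arrays, and 38209 were fitted with limma 3.58.1 in R 4.3.3, with 1 mean per group over all 24 arrays. P-values were adjusted over all probes for each contrast, and calls needed an adjusted p under 0.05 and 2-fold. The brightest probe stood for a gene. Of the probes, 18640 were named by the array files and 3268 through RefSeq. Described were all members and, per other list, up to 6 called genes by largest change, with up to 5 genes per surface isoform by correlation. EPCAM, the isoforms CA6 and the rest of the family, and the genes in the correlations of deviations were named outside that rule.

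Members and lists were chosen with earlier results of these data known. The fit was tested on simulated data. No array was a duplicate of another (highest correlation 0.985). Slide, array position, scan day and replicate number were tried as blocks, beside other backgrounds, scalings, filters and tests and each array left out in turn. No saturated transcript spots were found. The number of arrays limits the precision.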

Additional observations from a re-analysis of the deposited data

Results flagged for a closer look

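Arrays that stood far from the others of their group were looked for in 40 groups of 4 arrays, where chance alone flags about 1 in 20, and 4 were found. CA1 at 7.4 Gy on day 4 had a highest array of -4.00, the only one of that group well above background. CA13 had a highest array of -6.97 at 7.4 Gy on day 4 and of -2.74 at 6.7 Gy on day 7, and CA3 a lowest array of -7.18 at 6.7 Gy on day 7, all for probes near background in most arrays.

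The change against the shared controls differed between days for 4 isoforms well above background in the controls, by the limma test of the days against each other. From day 4 to day 7 the difference was 4.78 for CA1, 1.89 for CA2, 1.15 for CA7 and 2.20 for CA12. From day 4 to day 12 it was 6.90 for CA1, 2.42 for CA2, 1.78 for CA7 and 2.26 for CA12. The CA1 sizes are not firm, since 5 of the 8 day 4 arrays were not well above background, and they were 2.54 and 4.27 with normexp. For CA3 the fitted coefficients were 1.20 and 1.70, but its probe was well above background on 0 of 8 arrays of day 4, so they measure no size of change.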

How the results depend on the processing

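Where an isoform's difference had an unadjusted p under 0.05, no alternative turned its direction. The number of isoforms called at 6.7 Gy on day 4 was 1 in place of 2 with the methods' t-test, with only the groups compared and with slide as a block. At 7.4 Gy on day 4 it was 2 in place of 4 with array position as a block and 1 with scan day added as a second block, an alternative chosen after seeing the data. With normexp it was 1 in place of 0 at 7.4 Gy on day 7 and between days 12 and 7. With the replicate block, 2 and 4 isoforms were called on day 4, and 4 in place of 5 between days 7 and 4 (CA7 lost). The numbers do not pair the animals, since the deviations of the 62 pairs sharing a number correlated from -0.228 to 0.236 and 8 of 24 arrays correlated best with their own number. The replicate block also left 1 in place of 2 hypoxia targets at each dose on day 4.

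In the rest of the family, position as a block gave 1 call in place of 0 at 7.4 Gy on day 4 and 1 between doses on day 4. Leaving out an array gave 0 to 1 at 7.4 Gy on day 4 and between days 7 and 4. The transport count at 6.7 Gy on day 4 was 4 in the t-test, 2 with slide or position as a block, 0 with both blocks, and 4 to 6 with an array left out (4 without 6.7 Gy replicate 2). At 7.4 Gy it was 5 and 0 with these position blocks, and 1 in place of 0 at 6.7 Gy on day 7 with only the groups compared. Hypoxia targets at 6.7 Gy on day 4 numbered 0 with normexp, the t-test, only the groups compared, position, or both blocks, and 1 with the deposited table, no filter or slide. At 7.4 Gy they numbered 0 with the t-test, position or both blocks, 4 with spike-in scaling, and 1 with normexp, the deposited table, no filter, only the groups compared, slide or scan day. They ran from 0 to 1 and from 0 to 2 with an array left out. Between days 12 and 4 the count of 1 became 0 with normexp or slide, 3 with no minimum fold and 0 to 1 with an array left out, and between days 7 and 4 it became 1 with no minimum fold.

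The median of the surface isoforms was -0.52 in place of -0.26 at 6.7 Gy on day 7 with CA7 counted among them, and 0.30 in place of -0.00 at 7.4 Gy on day 12 with spike-in scaling. With an array left out it ran from -1.11 to -0.38 at 7.4 Gy on day 7 and from 0.015 to 0.56 at 6.7 Gy on day 12. The median of the others was -0.46 with normexp, -0.74 with quantile normalization and -0.43 without CA7 at 6.7 Gy on day 4, and -0.44 and -0.51 with the first 2 at 7.4 Gy. It was -0.12 with normexp at 6.7 Gy on day 7, 0.35 with spike-in scaling at 6.7 Gy on day 12, and 0.53 with normexp, 0.28 with spike-in scaling and 0.19 without CA7 at 7.4 Gy on day 12. With an array left out it ran from -1.31 to -0.71 and -1.27 to -0.63 on day 4, -0.41 to -0.053 at 7.4 Gy on day 7, and 0.12 to 0.31 and -0.11 to 0.18 on day 12. The cause was not tested for these. Array position cannot be told apart from the comparison in controls against days 7 and 12 and in days 7 and 12 against day 4, so no position block could be fitted as a fixed term there. Averaging probes of a gene could not differ, since each isoform had 1 tested probe.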
